A study of Mus musculus with 13 samples.

Results

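The 8 libraries described here were made from liver tumour RNA of mice given a control small interfering RNA against luciferase (siLuc), a gene that mice do not carry. They are 8 of the 13 RNA-seq libraries of the study, and were taken by their titles, siLuc replicates 1 to 8. All the mice were Mst1-/-; Mst2Flox/Flox on a mixed C57BL/6 and 129Sv background, and Mst2 was removed by injected adenovirus carrying Cre recombinase, which in mice reaches mainly hepatocytes. Mst1 was thus absent from every cell of the animal and Mst2 only from infected cells and their descendants, in all 8 libraries alike. The control siRNA was given intravenously in lipid nanoparticles for 9 days to animals whose hepatocellular carcinoma had been found by ultrasound. Age is not stated, nor whether each library came from a separate tumour or animal, nor how much surrounding liver was taken along, so the spread between libraries need not be a spread between animals.

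Mst1 and Mst2 (genes Stk4 and Stk3) are the upstream kinases of the Hippo pathway. They act through the Lats kinases to keep the coactivators Yap and Taz (genes Yap1 and Wwtr1) out of the nucleus, and mouse livers that lose both kinases overgrow and form tumours of hepatocyte and mixed character. Normal hepatocytes secrete most plasma proteins and divide their work along the liver lobule. Periportal cells make glucose and urea, and pericentral cells, under Wnt signalling, make glutamine and bile acids and metabolise drugs. Levels are given below as deposited FPKM (fragments scaled to transcript length and sequencing depth), as lowest, median and highest library or as mean ± SD (n = 8). The spread of a gene is the SD of its log2 CPM (counts scaled to library size, with TMM factors) over the 8 libraries, so that a spread of 1 is a typical 2-fold deviation. The spread of a gene without a library is given in brackets wherever leaving that library out moved it by more than 1.5 times. Gene lists are counted over members with a mean of at least 5 FPKM. A gene can reach this mean through 1 or a few high libraries. The filter thus favours genes of wide spread and the libraries where they are high, in the lists and among all genes alike.

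Replicates 1, 2 and 8 stood apart from the other 5 libraries. Each library was compared with the others by the root mean square difference of log2 CPM over the 7872 genes at a mean of 5 FPKM or more. Its mean was 0.723 for replicate 1, 0.694 for replicate 8 and 0.663 for replicate 2, and 0.502 to 0.565 for replicates 3 to 7. The same split is seen in the file names, which carry a code whose first digit is 6 for replicates 1 and 2, 7 for replicates 3 to 7, and 8 for replicate 8. The labels do not say what the digit is, so what is particular to these 3 libraries and what goes with the digit cannot be told apart. Where the median spread of a gene list is given, that over replicates 3 to 7 alone stands beside it. Replicate 8 was the only male library, with Ddx3y at 71.3 FPKM and Xist at 0.499 FPKM, against at most 0.0191 and at least 77.6 FPKM in the others. Replicate 1 was the only library in which deposited FPKM and counts parted by more than 1.5 times, which they did for 66 of the 7620 genes with at least 50 fragments in every library. Total fragments ran from 28856417 to 37043914.

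The germline loss of Mst1 was visible in every library. Stk4 (chromosome 2, 164070322 to 164155524, plus strand, in GENCODE M21 on GRCm38, the build called mm10) lay between 0 FPKM in replicate 1 and 0.0891 FPKM in replicate 5, with no more than 16 fragments. Stk3 (chromosome 15, 34875496 to 35178921, minus strand) ran between 4.97 FPKM in replicate 8 and 6.92 FPKM in replicate 6, with a median of 6.04, with a spread of 0.14, or 0.09 without replicate 8. This level is for the gene as a whole, so how much of the floxed part was left cannot be read from it. Yap1 ran from 8.10 FPKM in replicate 6 through a median of 10.22 to 11.9 FPKM in replicate 3 (spread 0.20), and Wwtr1, the gene of its paralog Taz, between 11.6 FPKM in replicate 5 and 24.8 FPKM in replicate 8, with a median of 14.997 (spread 0.36). Transcripts of both coactivators were thus present in all 8 libraries, and replicate 8 was highest for Wwtr1 but not for Yap1.

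Transcripts of secreted hepatocyte proteins made up most of the 20 genes of highest mean FPKM. Of 23358 genes kept, 12139 (52%) had a mean of at least 1 FPKM, 7872 (33.7%) at least 5, 699 at least 100 and 57 at least 1000. These 20 genes took between 10.6% and 12.6% of the fragments of the genes kept in a library. Albumin (Alb), apolipoprotein B (Apob) and transferrin (Trf), which are abundant in normal liver, cannot be placed here. The authors' files mark them as too deep to estimate and list them at 0, so their fragments are not part of the share above.

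Among genes with a value, the apolipoproteins Apoe (7755 ± 1152 FPKM) and Apoc1 (6032 ± 1711 FPKM) were the most abundant protein-coding transcripts. Next came the fetuin gene Ahsg (5117 ± 886 FPKM), the fibrinogen chain Fgb (4931 ± 1079 FPKM) and the vitamin D-binding protein Gc (4836 ± 995 FPKM). The translation elongation factor Eef1a1 (4171 ± 472 FPKM) was a gene of general cell function among the first 20. Apoa1, Hp (haptoglobin), Hpx (hemopexin), Kng1 (kininogen), Ttr (transthyretin), Fgg, Sepp1 (selenoprotein P), Cp (ceruloplasmin), Mgst1 and Serpina1b followed, with means between 2083 and 3553 FPKM. The spread of these 10 genes ran from 0.17 for Kng1 to 0.52 for Apoa1.

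H19 and Mup20 had the widest spread of the 20. Spp1 is not a product typical of hepatocytes, although it was counted in the periportal list as well as among the cholangiocyte markers. Spp1, osteopontin, an adhesive phosphoprotein of bile duct cells and of many carcinomas, ran from 1912 FPKM in replicate 1 through a median of 4466 to 5012 FPKM in replicate 5. Replicate 1 was below all others, and the spread was 0.47, or 0.20 without replicate 1. The imprinted non-coding RNA H19 (chromosome 7, 142575529 to 142578143, minus strand), abundant in fetal liver and silent in the adult, ran between 441 FPKM in replicate 8 and 4659.6 FPKM in replicate 1, with a median of 3044, a 13.2-fold range on the CPM scale and a spread of 1.22, or 0.75 without replicate 8. Mup20, a urinary pheromone carrier of male mice, ran from 1622 FPKM in replicate 8 through a median of 3829.7 to 10592 FPKM in replicate 6 with a spread of 0.96. The male library was the lowest for Mup20, whose paralogs in the Mup cluster are close copies that may share its fragments. Highest of all by FPKM was the microRNA gene Mir3064 (9794 ± 2966 FPKM), but this rests on 95 to 295 fragments per library. It is 67 bases long and lies in an exon of the RNA helicase gene Ddx5 on the same strand (chromosome 11, 106782693 to 106782759, minus strand, within 106780355 to 106789185), so that its fragments cannot be told apart from those of Ddx5. When genes were ranked by CPM, which does not correct for length, 13 of the 20 stayed.

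**Figure D1:**
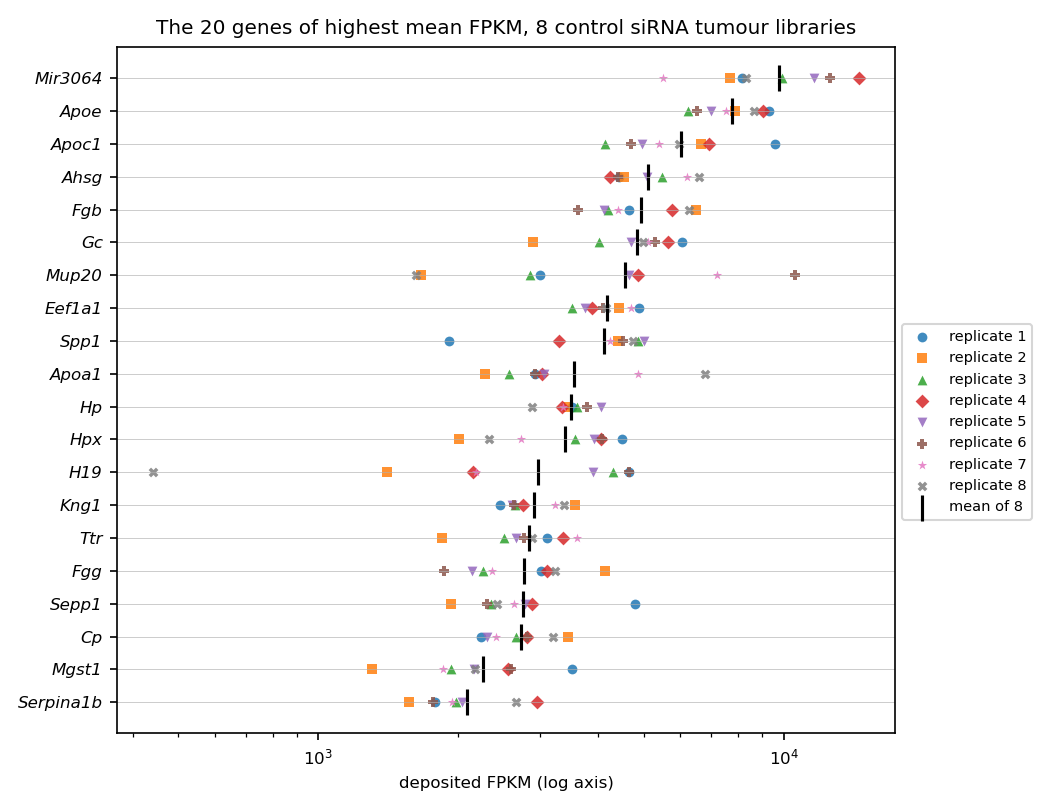
Deposited FPKM (log axis) of the 20 genes of highest mean, with a symbol for each of the 8 libraries and a bar for their mean. Most secreted proteins lie within a narrow band, while H19 runs from 441 to 4659.6 FPKM and Mup20 from 1622 to 10592 FPKM.

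The hepatocyte label held in every library. All 29 measured members of the list of hepatocyte identity and secreted proteins had a mean of at least 5 FPKM, against 33.7% of all genes. Their summed level ran from 49060.0 to 66830.0 FPKM. A spread of at least 1 was found for 226 of all 7872 genes (2.87%), and for 1 of these 29, Apoc3, the inhibitor of triglyceride clearance (between 107 FPKM in replicate 2 and 998 FPKM in replicate 4, with a median of 516). Fabp1, the liver fatty acid-binding protein, came close (spread 0.98), at 74.4 FPKM in replicate 2 against 136 to 599 FPKM in the others. The asialoglycoprotein receptor chain Asgr1, which removes desialylated proteins from blood, was also lowest in replicate 2 (from 43.9 FPKM in replicate 2 through a median of 186 to 265 FPKM in replicate 1). The median spread of the list was 0.40, against 0.26 for all 7872 genes, and 0.26 against 0.18 within replicates 3 to 7.

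Transcription factors that set hepatocyte identity had a median spread of 0.28 (0.20 within replicates 3 to 7). Hnf4a, the nuclear receptor that maintains the hepatocyte state, ran between 76.2 FPKM in replicate 1 and 127 FPKM in replicate 8, with a median of 82.5 (spread 0.23, or 0.09 without replicate 8). The pioneer factor Foxa3 stood at 32.8 ± 2.18 FPKM (spread 0.10) and Foxa2 at 11.8 ± 1.08 FPKM (spread 0.15). The bile acid receptor Nr1h4 (74.0 ± 12.2 FPKM) and the lipid sensor Ppara (33.0 ± 7.09 FPKM) had spreads of 0.24 and 0.32. Of the 16 listed factors with a mean of at least 5 FPKM, 1 passed a spread of 1, against 2.87% of all genes. This was Nr1i3, the constitutive androstane receptor that controls drug metabolism, at 2.28, 2.40 and 2.97 FPKM in replicates 8, 2 and 1 and at 17.5 and 17.1 FPKM in replicates 4 and 7.

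Over all 8 libraries, pericentral genes had the widest median spread of the lists with at least 3 members at a mean of 5 FPKM. Of 17 with a mean of at least 5 FPKM, 11 had a spread of at least 1, against 2.87% of all genes. The median was 1.29 (0.70 within replicates 3 to 7). Within those replicates it was not the widest, with MHC class II genes at 0.709 and male-biased genes at 0.7032 against 0.7019. Replicate 4 held the highest value for 13 of the 17, where it was highest for 10.5% of all genes, and replicate 1 the lowest for 9 of 17, where it was lowest for 19%. On the log2 scale the mean deviation of the list was 1.32 in replicate 4 and 0.74 in replicate 7, and -0.93 and -0.85 in replicates 1 and 8.

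Cyp2e1, the ethanol-inducible cytochrome, ran from 29.5 FPKM in replicate 1 through a median of 109 to 446 FPKM in replicate 4 (spread 1.31). Rgn, regucalcin, ran between 65.7 FPKM in replicate 1 and 1130.2 FPKM in replicate 4, with a median of 445 (spread 1.38), and the chemotactic hepatokine Lect2 from 3.25 FPKM in replicate 1 through a median of 17.3 to 46.5 FPKM in replicate 4 (spread 1.34). All 3 had replicate 4 highest and replicate 1 lowest. Oat, ornithine aminotransferase, was at 149 FPKM in replicate 4 and at 11.9 to 35.5 FPKM in the others (spread 1.18, or 0.66 without replicate 4). Cyp7a1, the rate-limiting enzyme of bile acid synthesis, was at 5.08 FPKM in replicate 1, against 19.2 to 74.8 FPKM elsewhere (spread 1.31, or 0.65 without replicate 1). The Cyp2c members Cyp2c29 (between 2.17 FPKM in replicate 1 and 82.7 FPKM in replicate 4, with a median of 9.75) and Cyp2c50 (from 9.84 FPKM in replicate 1 through a median of 70.7 to 246 FPKM in replicate 4) also had replicate 4 highest and replicate 1 lowest, although the copies of this family are similar enough that fragments may have been split between them.

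Glul, glutamine synthetase, which in normal liver marks the last cells before the central vein, ran between 24.1 FPKM in replicate 3 and 71.8 FPKM in replicate 4, with a median of 46.7, with a spread of 0.55. Several direct Wnt targets were scarce in all 8 libraries. Axin2 reached at most 0.345 FPKM, the R-spondin receptor Lgr5 0.203 FPKM, the repressor Tbx3 0.256 FPKM and the secreted inhibitor Notum 1.09 FPKM, in replicate 4. Of 15 listed Wnt targets 4 had a mean of at least 1 FPKM and 1 of at least 5, against 52% and 33.7% of all genes. The 1 was the cyclin Ccnd1 (19.4 ± 3.01 FPKM, spread 0.24), which many other signals also drive. The endothelial signals of the central vein were low as well, with Rspo3 at 0.395 to 2.76 FPKM and Wnt2 at 0 to 0.745 FPKM. Both of these were lowest in replicate 1.

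Periportal genes had a lower median spread than pericentral ones. Of 25 with a mean of at least 5 FPKM, 6 had a spread of at least 1, against 2.87% of all genes (median 0.74, and 0.53 within replicates 3 to 7). The list includes Spp1, which was also counted as a cholangiocyte marker. Replicate 4 was again the highest for 10 of the 25, against 10.5% of all genes. The mean deviation of the list was 0.56 in replicate 4 and 0.51 in replicate 1, and -0.38 and -0.36 in replicates 3 and 2. The urea cycle entry enzyme Cps1 ran from 724 FPKM in replicate 3 through a median of 909 to 1724 FPKM in replicate 4 (spread 0.40, or 0.23 without replicate 4), and Arg1, arginase, between 319 FPKM in replicate 2 and 1082 FPKM in replicate 4, with a median of 621 (spread 0.59). The naphthalene-metabolizing cytochrome Cyp2f2 ran from 13.8 FPKM in replicate 8 through a median of 127 to 452 FPKM in replicate 1 (spread 1.67), and replicates 2 and 8 were both below 20 FPKM. The glucose-releasing phosphatase G6pc split the libraries by the digit of the file code. It was at 82.9, 169.6 and 143 FPKM in replicates 1, 2 and 8 and at 11.4 to 24.5 FPKM in replicates 3 to 7. The other enzyme of gluconeogenesis on the list, Pck1, did not split that way (between 42.9 FPKM in replicate 3 and 331 FPKM in replicate 7, with a median of 187).

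Apoa4, an apolipoprotein that rises in fatty liver and in fasting, had the widest spread of the periportal members. It was at 2368 FPKM in replicate 1, 241 in replicate 8 and 115 in replicate 6, and at 7.31 to 30.20 FPKM in the other 5 (spread 2.94, or 1.78 without replicate 1). The serpin Serpina1e was lowest where Apoa4 was highest, at 95.1 FPKM in replicate 1 and 639 to 2822 FPKM elsewhere (spread 1.499, or 0.75 without replicate 1). Its paralogs Serpina1a to Serpina1c are close copies, and how shared fragments were assigned is not given in the sources used here.

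**Figure D2:**
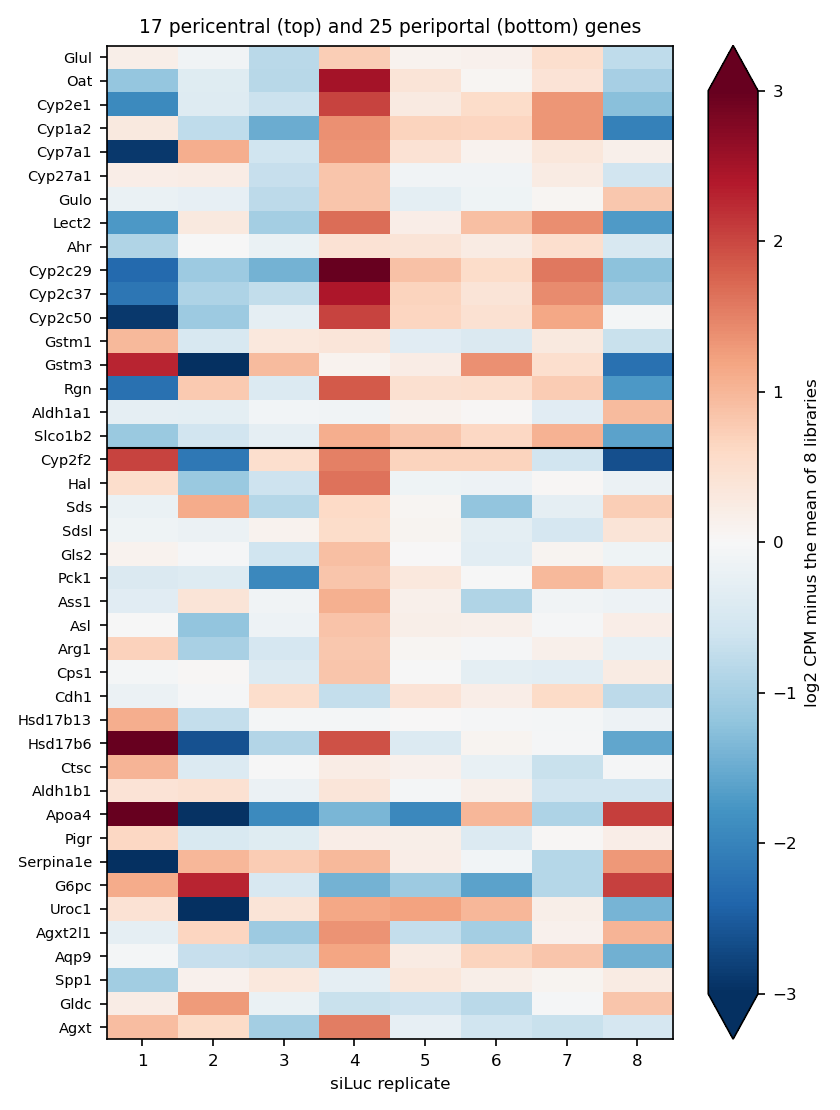
Deviation of log2 CPM from the mean of the 8 libraries for 17 pericentral and 25 periportal genes (rows) in each library (columns), with red above and blue below the mean. Replicate 4 is red over most pericentral genes (mean deviation 1.32) and replicates 1 and 8 are blue (-0.93 and -0.85), while the periportal means are highest in replicates 4 and 1 (0.56 and 0.51) and lowest in replicates 3 and 2 (-0.38 and -0.36).

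Fetal liver and progenitor genes differed widely in level between libraries. Of 30 listed genes, 20 had a mean of at least 1 FPKM and 14 of at least 5, against 52% and 33.7% of all genes. No fragment was found in at least 1 library for 3 of the 30. A spread of at least 1 was found for 7 of the 14, against 2.87% of all genes (median 0.93, and 0.52 within replicates 3 to 7). Dlk1, a fetal hepatoblast marker, had no fragment in any library. Its imprinted neighbour Meg3 reached at most 0.0547 FPKM, and the fetal RNA-binding protein gene Lin28b 0.0109 FPKM.

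Afp, alpha-fetoprotein, the serum marker of hepatoblasts and of hepatocellular carcinoma, fell into separate levels. It stood at 962 FPKM in replicate 7 and 851 FPKM in replicate 2, and at 10.12, 15.5, 18.99, 26.1, 73.5 and 76.8 FPKM in replicates 1, 5, 6, 4, 3 and 8. The highest library held 68323 fragments and the lowest 680, and the spread was 2.54 (2.45 within replicates 3 to 7). H19 and Afp did not go together, since replicates 1 and 6 were the highest for H19 and among the lowest for Afp.

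Igf2, the fetal growth factor next to H19, ran from 28.3 FPKM in replicate 8 through a median of 225 to 371 FPKM in replicate 5 (spread 1.29, or 0.85 without replicate 8). It was low with H19 in replicate 8, but in replicate 1 Igf2 was the second lowest while H19 was at the top of its range. The glypican Gpc3, also a marker of hepatocellular carcinoma, was steadier (between 63.8 FPKM in replicate 1 and 253 FPKM in replicate 2, with a median of 176, spread 0.56, or 0.33 without replicate 1). Spink3, a trypsin inhibitor of fetal liver, stood at 884 ± 310.3 FPKM and the desaturase Scd2 at 54.6 ± 15.9 FPKM. Cd24a, a surface glycoprotein of progenitor cells, was at 219.7 FPKM in replicate 1 and 4.57 to 26.02 FPKM in the others (spread 1.56, or 0.86 without replicate 1). Ly6d, a small surface antigen, was likewise highest in replicate 1 (from 1.43 FPKM in replicate 8 through a median of 8.19 to 187 FPKM in replicate 1, spread 2.43). Tff3, a trefoil peptide of mucous epithelia, was at 15.2 FPKM in replicate 2 and 476 to 1873 FPKM in the others (spread 2.16, or 0.79 without replicate 2).

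Of 11 imprinted genes at a mean of 5 FPKM or more, H19 and Igf2 included, 4 had a spread of at least 1, against 2.87% of all genes. Grb10, 1 of the 4, met this mean although its median was below 5 FPKM. Sgce, a sarcoglycan, was at 1.70, 1.83 and 4.21 FPKM in replicates 4, 1 and 6 and at 15.7 to 26.9 FPKM in the other 5 (spread 1.65). The growth inhibitor Grb10 ran between 2.96 FPKM in replicate 4 and 27.2 FPKM in replicate 2, with a median of 4.17 (spread 1.07, or 0.59 without replicate 2) and the zinc finger gene Peg3 from 23.7 FPKM in replicate 1 through a median of 41.8 to 144 FPKM in replicate 2 (spread 0.78, or 0.47 without replicate 2), both highest in replicate 2. Gnas, encoding the stimulatory G protein subunit, was even across the libraries (83.7 ± 12.1 FPKM, spread 0.19).

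Of 25 listed cholangiocyte markers, 21 had a mean of at least 1 FPKM and 15 of at least 5, against 52% and 33.7% of all genes, and keratins of simple epithelia were among the most abundant. Krt8 ran between 456 FPKM in replicate 7 and 1219 FPKM in replicate 8, with a median of 607 and Krt18 from 551 FPKM in replicate 7 through a median of 687 to 1258 FPKM in replicate 8, both also made by hepatocytes. The duct keratins Krt7 and Krt19 reached at most 3.31 and 1.95 FPKM, whereas the annexin Anxa4 stood at 121 ± 19.64 FPKM and the RNA-binding protein gene Bicc1 at 25.5 ± 5.16 FPKM. Sox9, the transcription factor of ducts and progenitors, ran between 5.92 FPKM in replicate 7 and 16.0 FPKM in replicate 2, with a median of 9.48 (spread 0.54), and Epcam, an adhesion molecule of the same cells, from 3.12 FPKM in replicate 8 through a median of 12.3 to 30.6 FPKM in replicate 3 (spread 1.05). Pkhd1, fibrocystin of the duct cilium, stood at 39.2 ± 13.7 FPKM and was lowest in replicate 1 (13.8 FPKM). The tight junction protein Cldn7 was at 0.0572 FPKM in replicate 8 and 1.26 to 10.6 FPKM in the others (spread 2.35, or 1.30 without replicate 8). The tetraspanin Tspan8 was at or above 23.7 FPKM in replicates 3, 5, 6 and 7 and at 1.61 to 6.42 FPKM in replicates 1, 2, 4 and 8 (spread 1.74). Of 15 cholangiocyte markers with a mean of at least 5 FPKM, 4 had a spread of at least 1, against 2.87% of all genes (median 0.47, and 0.29 within replicates 3 to 7).

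Components of the Hippo pathway had a median spread near that of all genes. It was 0.23 for the 18 with a mean of at least 5 FPKM, against 0.26, and 0.20 against 0.18 within replicates 3 to 7. Of the 18, 0 had a spread of 1 or more, which at the 2.87% of all genes says little about so short a list. Lats1 (10.6 ± 1.53 FPKM, spread 0.12) and Lats2 (7.95 ± 1.21 FPKM, spread 0.22) encode the kinases that phosphorylate Yap, and Taok1 (30.09 ± 1.49 FPKM, spread 0.09) a kinase that acts above them. The widest members were Wwc1, encoding the Kibra scaffold, which ran between 9.68 FPKM in replicate 1 and 59.0 FPKM in replicate 8, with a median of 27.8 (spread 0.75), and Amotl2, an angiomotin that is also a Yap target (from 7.21 FPKM in replicate 1 through a median of 20.9 to 43.9 FPKM in replicate 8, spread 0.73). Replicate 8 was highest and replicate 1 lowest for both.

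Target genes of Yap and Taz were lowest as a list in replicate 1. Of 25 listed, 20 had a mean of at least 1 FPKM and 15 of at least 5, against 52% and 33.7% of all genes. No fragment was found in at least 1 library for 2 of the 25. The mean deviation of those 15 was -0.48 in replicate 1 and between -0.07 and 0.21 in the others. Ankrd1, an ankyrin repeat protein used as a reporter of Yap activity, ran between 7.33 FPKM in replicate 1 and 44.3 FPKM in replicate 3, with a median of 32.1 (spread 0.85, or 0.45 without replicate 1). Ctgf, a matricellular growth factor, ran from 6.53 FPKM in replicate 2 through a median of 15.4 to 29.97 FPKM in replicate 7 (spread 0.78), and its relative Cyr61 between 13.7 FPKM in replicate 7 and 27.4 FPKM in replicate 3, with a median of 18.6 (spread 0.33), with replicate 7 highest for Ctgf and lowest for Cyr61. Only Myof, a membrane repair protein, passed a spread of 1 (from 1.37 FPKM in replicate 4 through a median of 7.60 to 11.9 FPKM in replicate 5, spread 1.03, or 0.57 without replicate 4). That is 1 of 15, which at the 2.87% of all genes says little about so short a list. In the Notch list, the target Hes1 was at 46.1, 32.5 and 31.7 FPKM in replicates 1, 2 and 3 and at 14.4 to 25.8 FPKM in the others (spread 0.59), and the receptor Notch2 was steadier (10.33 ± 1.90 FPKM, spread 0.26, or 0.14 without replicate 1).

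Replicate 4 also had the highest levels of most genes of amino acid breakdown and of cholesterol synthesis. It held the highest value for 19 of 25 urea cycle and amino acid genes and for 17 of 21 cholesterol genes, against 10.5% of all genes. In either list 0 genes had a spread of at least 1, which at the 2.87% of all genes says little about lists of this length. Hpd, an enzyme of tyrosine breakdown, ran between 226 FPKM in replicate 3 and 1231 FPKM in replicate 4, with a median of 632 (spread 0.71), and Tdo2, the tryptophan dioxygenase, from 484 FPKM in replicate 3 through a median of 818 to 1532 FPKM in replicate 4 (spread 0.50). Cholesterol genes were lowest in replicate 8 for 13 of 21, where it was lowest for 15.6% of all genes, and their summed level ran from 913 FPKM there to 2078 FPKM in replicate 4. Fatty acid oxidation genes had a median spread of 0.30 (0.17 within replicates 3 to 7), against 0.26 for all genes, and lipogenesis genes one of 0.52 (0.28 within replicates 3 to 7), with replicate 2 lowest by summed level (1232 FPKM against 1693 to 2895).

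Drug-metabolising enzymes held the largest number of genes of wide spread of the 40 lists, but theirs was also the longest list. As a share, pericentral genes (11 of 17), female-biased genes (5 of 9) and progenitor genes (7 of 14) held more, among lists with at least 3 members at that mean. Of 32 with a mean of at least 5 FPKM, 15 had a spread of at least 1, against 2.87% of all genes (median spread 0.82, and 0.52 within replicates 3 to 7). Replicate 2 held the lowest value for 19 of 32, where it was lowest for 18.9% of all genes, and replicate 4 the highest for 13. Cyp2a5, the coumarin hydroxylase, stood at 34.2 FPKM in replicate 2, 105 in replicate 8 and 443 to 1629 FPKM in the others (spread 1.997). Its close copy Cyp2a4, a testosterone hydroxylase that is higher in females, ran between 0.621 FPKM in replicate 2 and 172 FPKM in replicate 4, with a median of 17.6 (spread 2.29). The 2 genes are near-identical, and their fragments may not have been fully separated. Cyp3a11, the main drug-oxidising cytochrome, was at 50.36 to 99.51 FPKM in replicates 1, 2, 3 and 8 and at 215 to 487 FPKM in replicates 4 to 7 (spread 1.26). Ugt1a9, a glucuronosyltransferase, ran from 0.552 FPKM in replicate 2 through a median of 9.95 to 56.4 FPKM in replicate 4 (spread 1.998, or 1.26 without replicate 2), but it shares exons with the other Ugt1a genes.

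Genes of known sex bias in mouse liver that reached a mean of 5 FPKM placed the male library within the female range. Of 23 listed male-biased genes 7 reached it, and of 24 female-biased genes 9, against 33.7% of all genes. The 7 male-biased genes deviated by 0.01 in replicate 8, within the range of the female libraries (-0.70 to 0.76). The 9 female-biased genes deviated by -0.54 there, and replicates 1 and 2, both female, were lower (-1.24 and -1.36). With 1 male library among 8, genes high only in the male can miss this mean, so the placing covers mainly genes that female libraries also express. A spread of at least 1 was found for 1 of the 7 and 5 of the 9, against 2.87% of all genes.

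Secreted proteins of the acute phase and the complement system kept high summed levels, while single members ranged widely. The 31 acute phase genes had 9 with a spread of at least 1, against 2.87% of all genes (median spread 0.50, and 0.43 within replicates 3 to 7). Replicate 8 held the lowest value for 13 of the 31, against 15.6% of all genes. The serum amyloid gene Saa1 ran between 13.6 FPKM in replicate 8 and 108 FPKM in replicate 4, with a median of 35.2 and its copy Saa2 from 16.3 FPKM in replicate 8 through a median of 38.9 to 149.6 FPKM in replicate 4, which cannot be fully separated. Orm1, orosomucoid, ran between 63.1 FPKM in replicate 8 and 856 FPKM in replicate 4, with a median of 407 (spread 1.33). Mt2, a metallothionein, was lowest in replicate 8 and highest in replicate 1 (from 19.66 FPKM in replicate 8 through a median of 96.03 to 211 FPKM in replicate 1, spread 1.01, or 0.52 without replicate 8). The iron hormone hepcidin (Hamp) was at 9.27 FPKM in replicate 8, 38.8 in replicate 1 and 73.6 to 159.6 FPKM in the others (spread 1.33, or 0.56 without replicate 8). In contrast C3, the central complement protein (2018 ± 410.0 FPKM, spread 0.28), and Crp (202 ± 47.8 FPKM, spread 0.28) were steady.

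Transcripts of non-parenchymal cells were present in every library, and in bulk RNA fewer cells of a type and less RNA per cell cannot be told apart. The 17 macrophage and Kupffer cell markers at a mean of 5 FPKM or more had their lowest mean deviation in replicates 2 and 8 (-0.42 and -0.38), and replicate 2 held the lowest value for 8 of them, against 18.9% of all genes. The summed level of all 24 measured markers was highest in replicate 3 (1734 FPKM, against 859 to 1647 FPKM in the others). The 2 measures gave different orders. By mean deviation replicate 5 was highest (0.39) and replicate 3 stood at 0.16, while the summed level of replicate 8 was 1407 FPKM. A few markers of resident Kupffer cells followed neither order. Clec4f, their lectin, ran between 1.32 FPKM in replicate 8 and 31.2 FPKM in replicate 7, with a median of 10.16 (spread 1.42), the complement receptor Vsig4 from 1.23 FPKM in replicate 8 through a median of 8.38 to 23.3 FPKM in replicate 7 (spread 1.43) and the secreted scavenger protein Cd5l between 2.77 FPKM in replicate 8 and 51.4 FPKM in replicate 7, with a median of 19.61 (spread 1.34). Replicates 1, 3 and 8 were the 3 lowest for each of them. Ccr2, the receptor of recruited monocytes, had replicate 8 highest instead (from 9.68 FPKM in replicate 2 through a median of 31.0 to 60.6 FPKM in replicate 8, spread 0.92). The complement chain C1qa, made by macrophages in general, stood at 106 ± 25.1 FPKM (spread 0.34). The sinusoidal endothelial lectin Clec4g also had replicates 1, 3 and 8 lowest (between 3.94 FPKM in replicate 8 and 48.8 FPKM in replicate 7, with a median of 20.14, spread 1.26), whereas Pecam1, found on all endothelium, was highest in replicate 1 (from 10.8 FPKM in replicate 3 through a median of 13.5 to 19.2 FPKM in replicate 1, spread 0.30, or 0.19 without replicate 1).

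MHC class II genes were highest in replicates 3 and 5. H2-Aa stood at 284 and 304 FPKM there and at 51.8 to 179 FPKM elsewhere (spread 0.83), and replicate 2 was lowest for all 7 genes of the list with a mean of at least 5 FPKM, against 18.9% of all genes. Cd3g and Igj were highest in the same 2 libraries. Cd3g, a chain of the T cell receptor complex, stood at 11.8 and 13.3 FPKM in replicates 3 and 5 and at 1.75 to 7.79 FPKM in the others (spread 1.10). It was the only one of 21 T and NK cell markers with a mean of at least 5 FPKM, against 33.7% of all genes. Igj, the joining chain of secreted antibodies, was at 160.3 FPKM in replicate 3 and 13.2 to 65.6 FPKM in the others (spread 1.26). Ccl8, a chemokine, was high in these libraries too, at 63.0 and 87.4 FPKM against 1.46 to 15.8 FPKM (spread 1.94).

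Fibroblast and stellate cell transcripts were lowest in replicate 8. It held the lowest value for 10 of 13 such markers with a mean of at least 5 FPKM, against 15.6% of all genes (median spread 0.63, and 0.30 within replicates 3 to 7). Decorin (Dcn) ran between 23.1 FPKM in replicate 8 and 194 FPKM in replicate 7, with a median of 97.5 (spread 0.95, or 0.59 without replicate 8), the collagen gene Col3a1 from 16.3 FPKM in replicate 8 through a median of 58.5 to 75.6 FPKM in replicate 3 (spread 0.73, or 0.41 without replicate 8) and Pdgfra between 0.992 FPKM in replicate 8 and 7.36 FPKM in replicate 7, with a median of 5.47 (spread 0.93, or 0.34 without replicate 8). Neutrophil markers also had their lowest mean deviation there (-0.94). Replicate 8 was lowest for 2 of the 4 with a mean of at least 5 FPKM, against 15.6% of all genes. S100a8 was at 22.8 FPKM in replicate 8 against 37.5 to 118 FPKM in the others (spread 0.85). Of the 20 adipocyte, muscle and pancreas markers, 0 had a mean of 5 FPKM, against 33.7% of all genes. The list summed to 17.6 FPKM in replicate 1, mostly the elastase gene Cela1 (16.0 FPKM), and to 2.56 to 7.63 FPKM in the others.

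Proliferation genes were lowest in replicate 1. Of 17 proliferation genes at a mean of 5 FPKM or more, replicate 1 held the lowest value for 14 and replicate 2 the highest for 11, against 19% and 14.1% of all genes. Mki67, which marks all cycling cells, ran from 2.07 FPKM in replicate 1 through a median of 9.65 to 15.1 FPKM in replicate 2 (spread 0.73, or 0.32 without replicate 1), the DNA topoisomerase Top2a between 5.12 FPKM in replicate 1 and 40.02 FPKM in replicate 2, with a median of 18.9 (spread 0.85, or 0.47 without replicate 1) and the replication helicase subunit Mcm6 from 8.51 FPKM in replicate 1 through a median of 21.1 to 57.2 FPKM in replicate 2 (spread 0.86). No gene of the list had a spread of 1 or more, which at the 2.87% of all genes says little about so short a list. Within replicates 3 to 7 the median spread was 0.23, against 0.62 over all 8.

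Stress genes were highest in replicate 1. It held the highest value for 9 of 16 genes of the endoplasmic reticulum and integrated stress responses (median spread 0.59, and 0.37 within replicates 3 to 7), where it was highest for 29.1% of all genes. Fgf21, a hormone released by stressed or fasted hepatocytes, ran between 3.11 FPKM in replicate 4 and 122 FPKM in replicate 1, with a median of 12.5 (spread 1.79). Asns, asparagine synthetase, an Atf4 target, was at 19.1 FPKM in replicate 1, 0.613 in replicate 8 and 1.99 to 9.02 FPKM in the others (spread 1.51). The chaperone Hspa5 was even (638 ± 143 FPKM, spread 0.31). Atf3, an early stress factor, ran from 2.02 FPKM in replicate 8 through a median of 6.999 to 20.25 FPKM in replicate 1 (spread 1.09). The hypoxia genes as a list had a median spread of 0.32 (0.19 within replicates 3 to 7), and Vegfa stood at 24.9 ± 4.84 FPKM (spread 0.27, or 0.17 without replicate 2).

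For the remaining lists the counts of widely varying members are read against the 2.87% of all genes. A spread of at least 1 was found for 1 of 25 complement genes (median 0.35, and 0.29 within replicates 3 to 7) and 1 of 18 genes of sugar metabolism (median 0.40, and 0.26 within replicates 3 to 7). It was found for 6 of 22 bile acid genes (median 0.52, and 0.43 within replicates 3 to 7) and 2 of 13 iron genes (median 0.30, and 0.20 within replicates 3 to 7). Among cells other than hepatocytes, it was found for 1 of 11 endothelial markers (median 0.36, and 0.28 within replicates 3 to 7) and 4 of 17 macrophage and Kupffer cell markers (median 0.51, and 0.34 within replicates 3 to 7). It was found for 1 of 6 early response genes (median 0.61, and 0.27 within replicates 3 to 7), and for 0 of 9 p53 and senescence genes, whose mean deviation was 0.54 in replicate 1 and between -0.26 and 0.07 in the others. Globin and other erythroid genes, which follow the blood left in a sample, summed to 39.2 FPKM in replicate 7 and up to 77.2 FPKM in replicate 8.

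**Figure D3:**
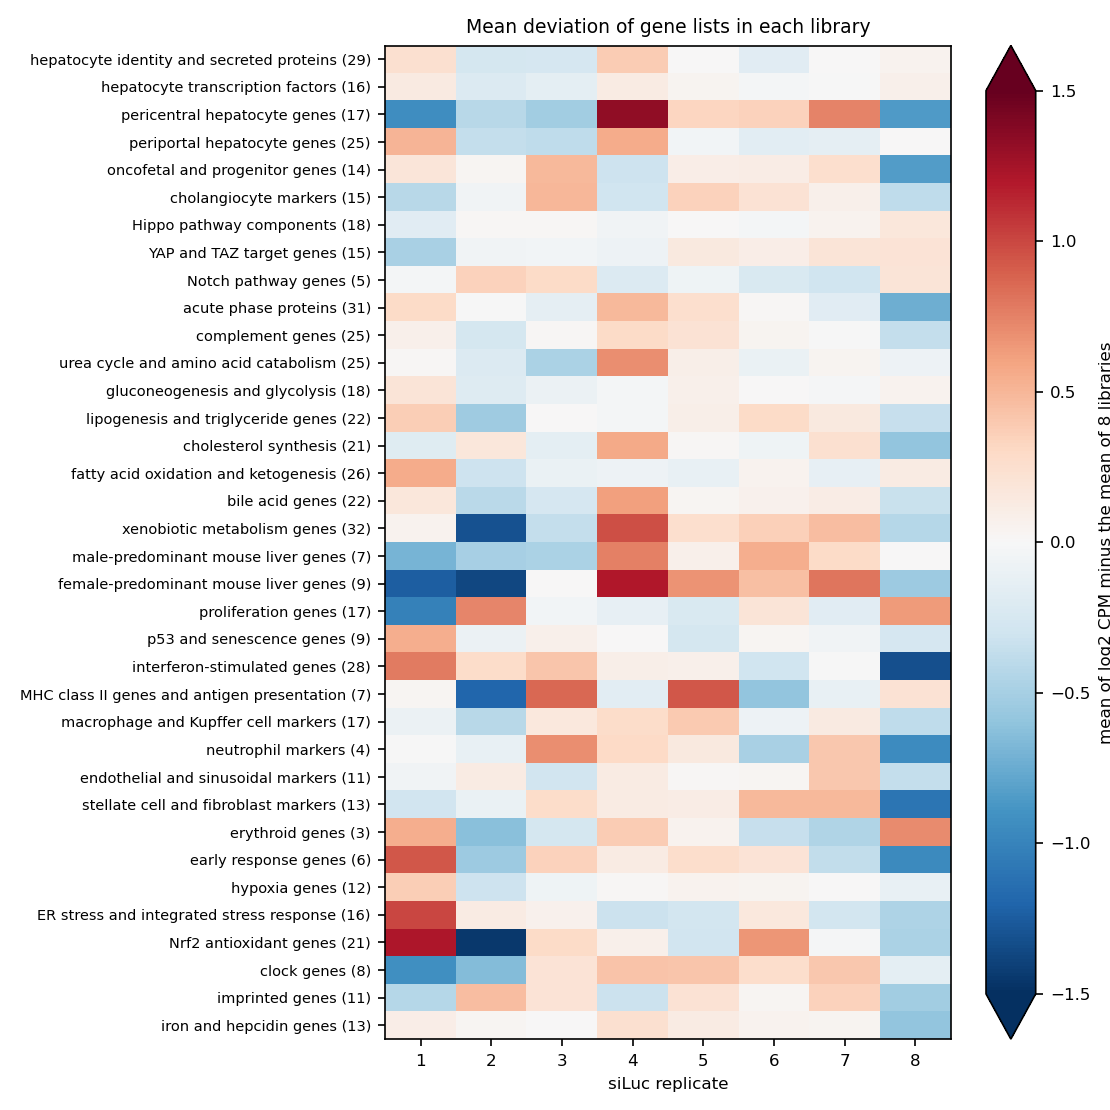
Mean deviation of log2 CPM from the mean of the 8 libraries, for each gene list with at least 3 members at a mean of 5 FPKM or more (rows, number of members in brackets) and each library (columns). The strongest colours are those of replicates 1, 2, 4 and 8, such as antioxidant genes in replicates 1 and 2 (1.21 and -1.45), pericentral genes in replicate 4 (1.32) and interferon-stimulated genes in replicate 8 (-1.32).

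Across the whole transcriptome most genes had a spread well under 1. The median spread of the 7872 genes was 0.26, the 5th percentile 0.12 and the 95th 0.80, and counting error alone gave a median of 0.037. In all, 2185 genes (27.8%) had a spread under 0.2, 226 one of at least 1 and 25 one of at least 2. Within replicates 3 to 7 the median was 0.18 and 100 genes had a spread of at least 1. Among the steadiest genes were Rps6kb1, Usf2, Zdhhc5, Slu7, Srsf2, Atxn7l3b, Bclaf1, Usp15 and Sec16b, with spreads of 0.04 to 0.06. They include a kinase that promotes ribosomal protein translation (Rps6kb1), splicing factors (Slu7, Srsf2) and an enzyme of ubiquitin removal (Usp15). Rps6kb1 ran between 14.7 FPKM in replicate 3 and 16.2 FPKM in replicate 1, with a median of 14.99. For Srsf2 the FPKM of replicate 1 (36.7, against 18.6 to 20.8 FPKM) departed from the others while its fragments did not (1121 to 1510).

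**Figure D4:**
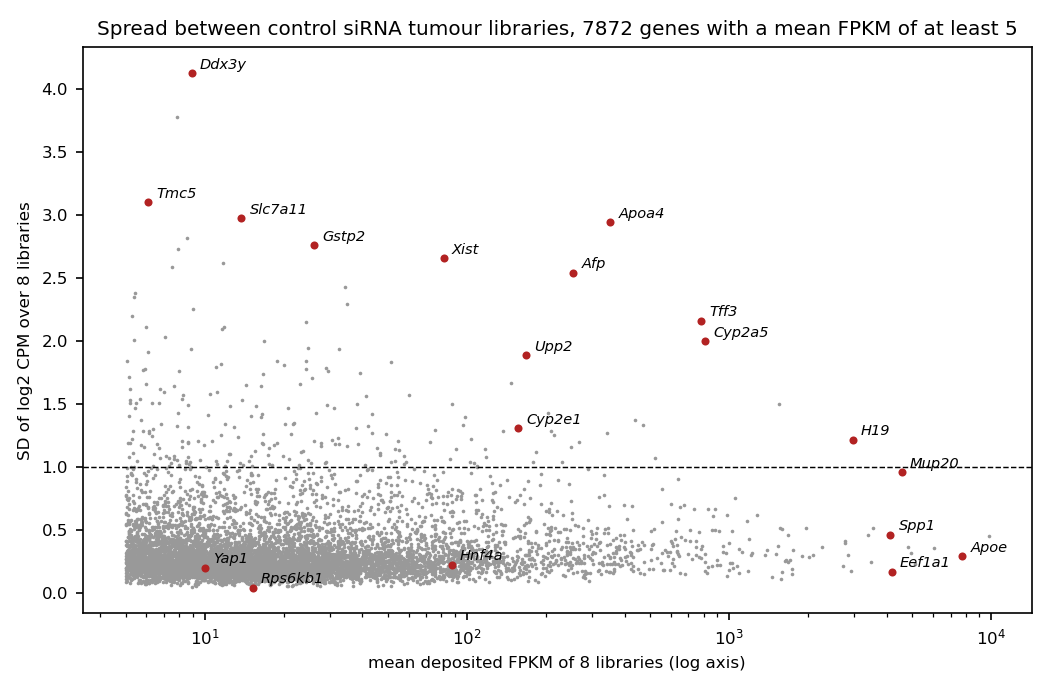
SD of log2 CPM over the 8 libraries against mean FPKM (log axis), a point per gene for 7872 genes, with 19 genes named in red and a dashed line at an SD of 1. Most points lie under 0.8, while Slc7a11 (2.97), Apoa4 and Afp lie far above and Rps6kb1 (0.04) near 0.

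Among the 100 most variable genes replicate 1 held the highest value for 30 and the lowest for 27, against 29.1% and 19% of all 7872, and replicate 8 the lowest for 31, against 15.6%. Of the 100, 55 were also among the 100 most variable within replicates 3 to 7. Tmc5, a channel-like membrane protein, had the widest spread of the 30 named, at 16.6, 10.5, 9.37, 7.96 and 3.91 FPKM in replicates 1, 3, 5, 6 and 4 and at 0.0557 to 0.252 FPKM in replicates 2, 7 and 8 (spread 3.10). Slc7a11, the cystine importer that feeds glutathione synthesis, followed (chromosome 3, 49892526 to 50443614, minus strand). It was at 77.9 FPKM in replicate 1, 25.4 in replicate 6, 3.90 in replicate 3 and 0.179 to 1.06 FPKM in the other 5, a 395-fold range on the CPM scale (spread 2.97). In replicates 3 to 7 alone its spread was 2.19.

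Slc7a11 belongs to the targets of Nrf2, the transcription factor of the oxidant defence, and most of these had replicate 1 at the top and replicate 2 at the bottom. Replicate 1 held the highest value for 14 of 21 such genes at a mean of 5 FPKM or more and replicate 2 the lowest for 17, against 29.1% and 18.9% of all genes. A spread of at least 1 was found for 7 of the 21, against 2.87% of all genes (median spread 0.61, and 0.47 within replicates 3 to 7). The quinone reductase Nqo1 ran from 4.90 FPKM in replicate 2 through a median of 42.6 to 87.6 FPKM in replicate 1 (spread 1.42), the carbonyl reductase Cbr3 between 1.70 FPKM in replicate 2 and 114 FPKM in replicate 1, with a median of 17.8 (spread 1.77) and the sulfiredoxin Srxn1 from 9.71 FPKM in replicate 2 through a median of 27.3 to 77.1 FPKM in replicate 1 (spread 0.94). Gclc, the catalytic subunit of glutathione synthesis, ran between 59.1 FPKM in replicate 2 and 266 FPKM in replicate 1, with a median of 103 (spread 0.72), and its modifier Gclm was even (96.5 ± 18.5 FPKM, spread 0.29). The glutathione transferase Gstm3 was at 3.33 and 6.50 FPKM in replicates 2 and 8 and 32.9 to 149 FPKM in the others (spread 1.84). The core of the antioxidant response element, TGACNNNGC on either strand, where N is any base, is found between 250 bases before and 50 after the RefSeq start in 6 of the 19 listed genes with an entry (Gclm, Txnrd1, Srxn1, G6pdx, Pgd and Abcc4) and in 14.0% of 27025 genes with a RefSeq promoter entry and in 17.6% of the 5787 such genes at a mean of 5 FPKM or more.

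The glutathione transferase genes Gstp1 and Gstp2 are neighbouring copies (chromosome 19, 4035407 to 4037985, minus strand, and chromosome 19, 4040285 to 4046023, minus strand) and behaved differently. Gstp1 ran from 75.6 FPKM in replicate 2 through a median of 155 to 207 FPKM in replicate 6, with a spread of 0.45, or 0.20 without replicate 2. Gstp2 was at 111 FPKM in replicate 1, 21.4 to 27.1 FPKM in replicates 3 to 6, and 2.48, 1.39 and 0.299 FPKM in replicates 7, 8 and 2, a spread of 2.76. Fragments of such copies can be split between them, and Gstp2 holds at most 2651 fragments, so its level is less certain than that of Gstp1. Gstp2 was at its lowest in the same library as Gstp1. Their promoter windows, from 250 bases before to 50 after the RefSeq start and printed 5′ to 3′ (GRCm38.p6, chr19:4037863-4038162, minus strand, and chr19:4042172-4042471, minus strand) are shown because the genes differ so much in spread. The capitals mark the match to an AP-1 type element, TGANTCA, a motif whose reverse complement has the same letters and which also forms part of longer antioxidant elements:

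Gstp1: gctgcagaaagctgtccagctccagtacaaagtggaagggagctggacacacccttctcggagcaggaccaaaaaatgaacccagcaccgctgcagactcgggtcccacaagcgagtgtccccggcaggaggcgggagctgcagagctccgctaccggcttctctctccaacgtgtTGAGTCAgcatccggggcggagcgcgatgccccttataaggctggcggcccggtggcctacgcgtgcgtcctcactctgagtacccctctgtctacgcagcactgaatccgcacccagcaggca

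Gstp2: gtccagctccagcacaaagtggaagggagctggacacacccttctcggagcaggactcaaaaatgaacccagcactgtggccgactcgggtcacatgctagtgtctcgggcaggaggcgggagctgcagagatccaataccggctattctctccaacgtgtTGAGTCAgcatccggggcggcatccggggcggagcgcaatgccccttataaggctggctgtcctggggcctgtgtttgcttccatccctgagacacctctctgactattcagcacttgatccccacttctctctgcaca

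Both windows hold the element, starting 74 bases before the RefSeq start in Gstp1 and 89 in Gstp2, and 243 of 318 aligned columns (76.4%) are identical. It is found in 8.97% of all genes with an entry, in 6.53% of those with a mean of at least 5 FPKM and in 3 of the 19 Nrf2 genes with an entry (Srxn1, Gstp1 and Osgin1). The 2 windows thus share the element although the 2 genes differ in spread. The Gstp1 window spans the 5′ end of that gene in GENCODE (4037985). The Gstp2 window lies inside its GENCODE gene, whose 5′ end is at 4046023, so the 2 annotations differ on where Gstp2 starts.

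The other genes of widest spread had various known roles. The prostaglandin synthase Ptgds ran between 0.336 FPKM in replicate 8 and 48.4 FPKM in replicate 4, with a median of 3.93 (spread 2.62). Akr1c18, which inactivates progesterone, was at 8.67 to 22.3 FPKM in replicates 2, 3, 6 and 7 and at 0.199 to 1.54 FPKM in the other 4 (spread 2.59). Hsd17b6, a steroid dehydrogenase, ran from 2.35 FPKM in replicate 2 through a median of 12.6 to 149 FPKM in replicate 1 (spread 1.93). The water channel Aqp4 was at 0.782 to 1.17 FPKM in replicates 3, 5 and 6 and at 9.07 to 22.3 FPKM in the other 5 (spread 1.94). Vgll3, a cofactor that binds the same Tead proteins as Yap, was highest in replicates 8, 2 and 7 (17.5, 13.4 and 6.87 FPKM) and at 0.324 to 2.07 FPKM in the others (spread 2.20). Fam174b (between 0.603 FPKM in replicate 1 and 60.8 FPKM in replicate 2, with a median of 21.0, spread 2.15, or 1.29 without replicate 1) and the muscle-type nebulette gene Nebl (from 0.447 FPKM in replicate 6 through a median of 7.36 to 21.7 FPKM in replicate 8, spread 2.25) were lowest in replicates 1 and 6. The defensin Defb1 (between 0.284 FPKM in replicate 8 and 45.0 FPKM in replicate 1, with a median of 7.44, spread 2.12), the annexin Anxa13 (from 0.891 FPKM in replicate 8 through a median of 6.60 to 33.8 FPKM in replicate 1, spread 2.097), Sdcbp2 (spread 2.03) and Gdpd3 (spread 1.84) were highest in replicate 1. The organic anion transporters Slc22a26 (between 0.226 FPKM in replicate 1 and 11.3 FPKM in replicate 7, with a median of 4.67) and Slc22a27 (from 0.369 FPKM in replicate 8 through a median of 3.91 to 19.1 FPKM in replicate 7) were highest in replicate 7. Crygn, Wfdc15b and Cib3, the remaining named genes, had spreads of 2.11, 1.91 and 1.85, or 0.99 without replicate 2.

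**Figure D5:**
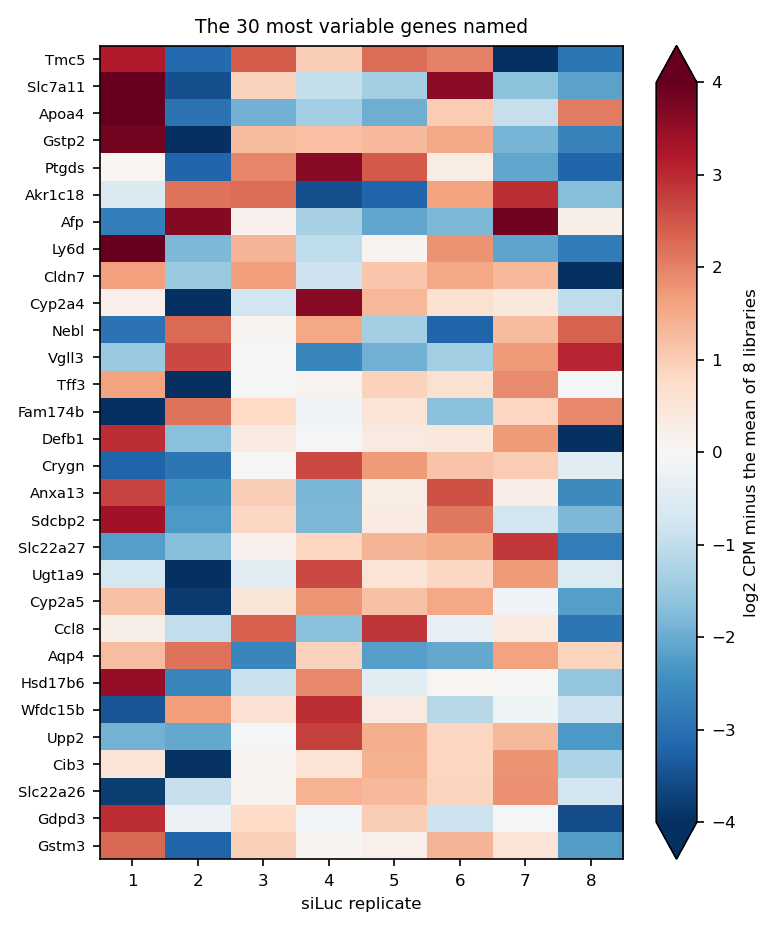
Deviation of log2 CPM from the mean of the 8 libraries for the 30 most variable genes named (rows, from the most variable down; Gm and Rik names, Xist and Y-linked genes passed over) in each library (columns). Replicate 1 is red for Slc7a11, Apoa4, Gstp2 and Ly6d, where replicate 2 is blue, and Afp is red in replicates 2 and 7.

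Interferon-stimulated genes were lowest in replicate 8 almost throughout. Of 28 with a mean of at least 5 FPKM, replicate 8 held the lowest value for 25 and replicate 1 the highest for 20, against 15.6% and 29.1% of all genes. A spread of at least 1 was found for 5 of the 28, against 2.87% of all genes. Isg15, a ubiquitin-like modifier, ran between 4.06 FPKM in replicate 8 and 35.6 FPKM in replicate 2, with a median of 11.04 (spread 1.09), and Ifit1, a sensor of foreign RNA, from 16.5 FPKM in replicate 8 through a median of 40.19 to 90.9 FPKM in replicate 2 (spread 0.85). The interferon regulatory factor Irf7 ran between 9.88 FPKM in replicate 8 and 51.7 FPKM in replicate 1, with a median of 26.6 (spread 0.75). The chemokine Cxcl9 differed, with replicates 5 and 3 highest (20.30 and 14.96 FPKM, spread 1.65). Within replicates 3 to 7 the median spread of the list was 0.37, against 0.71 over all 8.

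The promoters of Isg15 (chr4:156200769-156201068, minus strand) and Ifit1 (chr19:34640639-34640938, plus strand) are shown, in GRCm38.p6, as examples of an element through which interferon is known to act. The capitals mark matches to the interferon-stimulated response element, which was searched as TTTC, NN and TTTC without a break, where N is any base, on either strand (read as GAAA, NN and GAAA on the other). Matches can overlap one another:

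Isg15: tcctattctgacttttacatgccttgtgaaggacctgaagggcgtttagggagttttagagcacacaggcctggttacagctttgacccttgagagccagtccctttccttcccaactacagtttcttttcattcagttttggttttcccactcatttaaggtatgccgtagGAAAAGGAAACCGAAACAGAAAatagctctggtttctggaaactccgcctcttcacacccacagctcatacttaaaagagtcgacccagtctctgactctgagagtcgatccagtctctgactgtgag

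Ifit1: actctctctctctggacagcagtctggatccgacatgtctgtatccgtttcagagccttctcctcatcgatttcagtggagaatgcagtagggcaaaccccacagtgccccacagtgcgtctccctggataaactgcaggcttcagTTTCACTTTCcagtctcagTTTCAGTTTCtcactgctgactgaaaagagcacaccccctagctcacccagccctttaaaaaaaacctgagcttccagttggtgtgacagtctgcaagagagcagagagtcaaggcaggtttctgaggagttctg

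The Isg15 window held 3 overlapping matches and the Ifit1 window 2 separate ones. Of the 28 interferon genes 20 had a promoter entry and 13 of these (65.0%) held a match, against 3.99% of 27025 genes and 3.99% of the 5787 with a mean of at least 5 FPKM. The 7 without a match were Ifit2, Irf7, Irf1, Oasl2, Ifi44, Xaf1 and Cxcl9. The list was made of genes known to respond to interferon, so this share follows from the choice of list and says nothing about the libraries. Whether the element has a part in the low values of replicate 8 was not tested.

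Some genes of the circadian clock differed with the digit of the file code. Of 20 listed, 8 had a mean of at least 5 FPKM, against 33.7% of all genes. A spread of at least 1 was found for 3 of these 8, against 2.87% of all genes (median 0.69, and 0.24 within replicates 3 to 7). Arntl, Npas2, Per1, Cry1 and Nr1d1, described next, did not reach that mean. Arntl, the gene of the clock activator Bmal, was at 9.21 and 9.59 FPKM in replicates 1 and 2 (digit 6), 0.305 to 0.601 FPKM in replicates 3 to 7 (digit 7) and 3.35 FPKM in replicate 8 (digit 8). The levels of the 3 digits did not overlap, but how many of all genes separate in this way was not counted. Its partner Npas2 was also highest in replicates 1 and 2, at 0.443 and 0.466 FPKM against at most 0.113 FPKM. The repressors Per1 and Per3 were lowest in replicates 1 and 2. Per1 was at 0.212 and 0.396 FPKM in replicates 1 and 2, 1.17 to 2.95 FPKM in replicates 3 to 7 and 1.005 FPKM in replicate 8. Per3 ran from 0.503 FPKM in replicate 1 through a median of 6.56 to 8.93 FPKM in replicate 4 (spread 1.47, or 0.94 without replicate 1, and 0.25 within replicates 3 to 7), and the output factor Dbp was at 3.20 to 4.78 FPKM in replicates 8, 2 and 1 and 12.1 to 19.02 FPKM in replicates 3 to 7 (spread 1.05). The other repressors did not share this order, since Cry1 was highest in replicate 8 (8.39 FPKM, against 1.79 to 2.92 FPKM) and Nr1d1 lowest there (0.297 FPKM, against 1.89 to 5.18 FPKM). These genes cycle through the day in normal liver. The labels give no time of collection, and its part in these differences was not tested.

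Some genes had a single library far from the rest. Counting gaps of at least 1 log2 unit between the extreme library and the next, 168 of 7872 genes (2.13%) had 1 library far above and 224 (2.85%) 1 library far below. Replicate 1 accounted for 74 of the high and 66 of the low gaps, replicate 8 for 23 and 82, and replicate 2 for 21 and 59. Replicates 3 to 7 held between 6 and 19 high and between 0 and 8 low gaps each. Without microRNA, snoRNA and scaRNA genes these numbers were 0 to 15 and 0 to 7, and replicate 5 held 0 of either kind. In replicate 8, Fibin, a secreted protein of the developing limb, was at 60.14 FPKM against 0.703 to 7.47 FPKM (spread 1.82). In replicate 4, Polr2l, a small subunit common to the RNA polymerases, was at 160.02 FPKM against 19.5 to 30.5 FPKM (spread 0.98, or 0.26 without replicate 4). In replicate 2, the calcineurin-like protein gene Chp2 was at 105 FPKM against 1.81 to 26.2 FPKM (spread 1.78). Replicate 3 alone was nearly without the transcript of the Gt(ROSA)26Sor locus (1.61 FPKM, against 9.97 to 29.4 FPKM, spread 1.41, or 0.52 without replicate 3).

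The file names also carry a number, 89 for replicates 1 and 2, 96 for replicates 5, 6 and 7, and 92, 94 and 11 for replicates 3, 4 and 8, and whether libraries of 1 number are more alike was tested. Libraries of 1 number lay 0.507 apart on average and those of different number 0.606, a difference of -0.099 that did not pass (one-sided exact permutation test over 560 assignments, p = 0.116, smallest possible 0.00179). Replicates 5, 6 and 7 were close to each other (0.37 to 0.43), but replicates 1 and 2, of the same number, were 0.82 apart, more than all other pairs but that of replicates 1 and 8. The difference changed sign without replicate 5 (0.0030) or replicate 6 (0.00094). The closest pair of all, replicates 3 and 5 (0.35), differed far beyond sampling noise (chi-square per degree of freedom 34.8), and whether any 2 libraries came from the same tumour cannot be told from these counts.

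Of 16077 genes tested with edgeR's quasi-likelihood F test for differences between file-name numbers, 12 (0.0746%) passed a Benjamini-Hochberg adjusted p of 0.05, and 1488 had an unadjusted p under 0.05. Ddx3y, Eif2s3y, Uty, Kdm5d and Xist are the genes of sex and mark replicate 8, which has its number to itself. The others were Upp2 (adjusted p = 0.0142), Arntl (adjusted p = 0.0149), Tspan8, Acss3, Polr2l, Chrm3 and 4930412C18Rik. Upp2 ran between 17.8 FPKM in replicate 8 and 584 FPKM in replicate 4, with a median of 120.1 (spread 1.89), and Acss3, a short-chain fatty acid ligase, from 0.397 FPKM in replicate 8 through a median of 6.49 to 19.002 FPKM in replicate 7 (spread 1.77, or 1.07 without replicate 8). Since the residual spread comes only from the libraries of numbers 89 and 96, the count depends on them. It was 714 without replicate 1 and 982 without replicate 2, but 2, 2 and 3 without replicates 5, 6 and 7, and 3 without replicate 8. DESeq2's likelihood ratio test called 940 genes, among them the same 12.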

How the data were processed

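Total RNA of each tumour sample was made into libraries with a ribosomal RNA depletion kit and sequenced on a HiSeq2500, per the labels' protocols. The submitters' processing notes name Trimmomatic 0.30, TopHat2 2.0.8, Cufflinks and Cuffdiff 2.1.1 and the build mm10. Not given in the sources used here are settings, annotation and the treatment of strand and of fragments shared between genes. The authors deposited, per library and gene symbol, an estimated count of fragments and an FPKM value. Between 97.57% and 97.9% of the estimated counts were whole (tolerance 1e-06), and all were rounded here. Alb, Apob and Trf, which the files mark as too deep and list at 0, were left out of 23361 symbols. Another 18 genes marked as failed estimates in some library were kept.

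CPM values were computed with edgeR 4.0.16 in R 4.3.3 (TMM scaling, prior count 2), and the spread is the SD of their log2 over 8 libraries. It was described where the mean was at least 5 FPKM. Differences between file-name numbers were tested with edgeR's quasi-likelihood F test (Benjamini-Hochberg) and, as an alternative, DESeq2 1.42.0. Tested on simulated data with known changes, the edgeR test made 54 false calls among 234 where each gene had its own dispersion, more than its threshold allows, and 6 among 195 where dispersions followed the trend. Coordinates come from GENCODE M21 on GRCm38 and promoters from RefSeq on GRCm38.p6. Separate animals are not stated in the labels, so p-values and spreads measure only the differences between these libraries. Total fragments of 28856417 to 37043914 per library gave a median counting SD of 0.037 on the log2 scale, which covers counting error only.

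Libraries were grouped by title alone, and the siLuc group was compared with no other group. The 40 gene lists, their members and the tests were chosen with earlier results of these data known. Named genes are Stk3, Stk4, Yap1, the 20 of highest mean FPKM, the 30 of widest and 10 of smallest spread (Gm, Rik, Xist and Y-linked names passed over), the 3 most abundant and 2 most variable members of each list, the 10 of smallest p between numbers, and for each library the 3 genes with the largest gap above and 2 below the next. Other genes named, and the promoter motifs, were chosen after their values were seen. A few that this choice would name are left out here. Alternatives were other scalings, prior counts, pseudocounts, filters and measures of spread, leaving out each library, summing libraries of 1 number, and replicates 3 to 7 alone.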

Additional observations from a re-analysis of the deposited data

Results flagged for a closer look

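For each of 204 genes and list means whose values are given above, the gap between the extreme library and its neighbour was divided by the range of all 8 on the log2 scale. A ratio above Dixon's 95% critical value for 8 libraries was found for 28. Chance alone gives about 1 in 20 in genes not chosen for their values. Many genes here were named for a wide spread or for the gap of 1 library, so the number found is not to be read against that share.

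Replicate 8 was the outlying library for 10 of them. It was the highest for Ddx3y (0.927), Hnf4a (0.675) and Cry1 (0.689), and the lowest for Xist (0.909), Cldn7 (0.528), Mt2 (0.591), Hamp (0.606), Pdgfra (0.659), Nr1d1 (0.638) and the mean of the iron and hepcidin genes (0.726). Hnf4a stood at 127 FPKM there against 76.2 to 88.6 FPKM.

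Replicate 1 was the lowest for Stk4 (0.744), Spp1 (0.563), Cyp7a1 (0.542), Wnt2 (0.564), Serpina1e (0.530), Mki67 (0.628), Top2a (0.547) and the mean of the Yap and Taz targets (0.596). Stk4 and Wnt2 had no measurable level in replicate 1 and were scarce in the other libraries, so their ratios rest on values near the floor. Replicate 1 was the highest for Cd24a (0.540) and for the means of the p53 and senescence genes (0.586) and of the stress response genes (0.577).

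Replicate 2 was the lowest for Tff3 (0.718) and Gstp1 (0.594). Replicate 4 was the highest for Oat (0.568) and Polr2l (0.766) and the lowest for Myof (0.535) and Anxa4 (0.529). Replicate 3 was the lowest for Gt(ROSA)26Sor (0.650).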

How the results depend on the processing

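Of the 100 most variable genes, 96 and 99 were kept with library totals and upper-quartile scaling, 72 with a prior count of 0.5, and between 81 and 98 when any 1 library was left out. Far fewer were kept with log2(FPKM + 1) (2) and log2(FPKM + 0.1) (0), where microRNA and snoRNA genes of few fragments took the places. With these genes removed, an alternative added after seeing the data, log2(FPKM + 1) kept 83. The number kept was 46 with a minimum mean of 1 FPKM, 40 with 20, 27 with no filter, 64 with the median absolute deviation and 55 in replicates 3 to 7. The 226 genes with a spread of at least 1 became 341 with a prior count of 0.5, 376 with log2(FPKM + 0.1), 531 and 97 with minimum means of 1 and 20 FPKM, 1685 with no filter and 100 in replicates 3 to 7, and 189 to 257 without any 1 library. Ranking by CPM kept 13 of the 20 most abundant genes, and 19 or 20 were kept without any 1 library. For the 227 named genes, 3264 of 3632 alternative spreads were within 1.5 times of the value given and 368 were not, 106 of them in replicates 3 to 7.

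The 12 genes that differed between file-name numbers became 4 at an adjusted p of 0.01, 58 with no filter on low counts, 53 in replicates 3 to 7 and 940 with DESeq2, and 2 to 982 when 1 library was left out. The difference in distance between libraries that share a number and those that do not ranged from -0.194 to 0.0030 when 1 library was left out, and was positive without replicate 5 (0.0030) and replicate 6 (0.00094). The cause of these changes was not tested. No paired analysis was possible because the 8 libraries form a single group and no groups were compared.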
